A study of Homo sapiens with 2 samples.

Results

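The receptors described here are the 5 somatostatin receptors SSTR1, SSTR2, SSTR3, SSTR4 and SSTR5, the incretin receptors GLP1R and GIPR, the dopamine receptor DRD2 and the gastrin receptor CCKBR, 9 genes whose products serve or have been proposed as drug, imaging or radionuclide targets in neuroendocrine tumours. They were taken by gene symbol, and every probe set whose only symbol in the platform annotation was one of these names was kept, which gave 22 probe sets for 9 of the 19775 genes measured. RNA came from QGP1, an established human pancreatic neuroendocrine tumour (pNET) cell line, in 2 groups of 1 Affymetrix array each. The first group was QGP1 cells with high aldehyde dehydrogenase (ALDH) activity, obtained by flow sorting, and the second was control QGP1 cells. The labels give no other treatment or genetic change, and the sources used here do not say whether the control cells were sorted.

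All of these proteins are G protein-coupled receptors of the cell surface. Somatostatin receptors and DRD2 couple to inhibitory G proteins, which lower cyclic AMP (cAMP), open inward-rectifier potassium channels and restrain calcium entry, and in endocrine cells this reduces hormone release. GLP1R and GIPR couple to the stimulatory G protein and raise cAMP, by which they enhance insulin release from beta cells, and CCKBR acts mainly through Gq and calcium. In neuroendocrine tumours SSTR2 is the main site of action of octreotide, lanreotide and radiolabelled somatostatin analogues.

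The values were log2 levels made with RMA (robust multi-array average), and each difference is ALDH high minus control, so that 1 is a 2-fold difference. With 1 array per group no difference has a replicate check, and no test was made. Detection calls were not part of the table, so dim signals do not show whether a transcript was present. Across 54613 compared probe sets the arrays had medians of 5.68 for ALDH high and 5.68 for control, and their correlation across probe sets, which do not stand in for replicates, was 0.992 (Pearson's r). The neuroendocrine markers of the line had middle to high levels on both arrays. All 10 measured ones were at or above the median level on at least 1 array, against 64.9% of all genes. Slightly lower in ALDH high were 8 of 10, against 50.3% of all genes below 0, and their median difference was -0.12. The chromogranin genes, named after their values were seen, read 11.50 in ALDH high and 11.70 in control for CHGA and 12.60 in ALDH high and 12.71 in control for CHGB. The granule protein SCG5 (-0.37) and the transcription factor INSM1 (0.34) had the largest differences of this list.

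None of the 9 receptors differed by 2-fold or by 1.5-fold between ALDH-high and control cells. Among all 19775 genes, the share over 2-fold higher was 0.465% and the share over 2-fold lower 1.23%. At 1.5-fold these shares were 2.61% and 4.21%, so that 0 of 9 is near the background. No single probe set of any receptor passed 1.5-fold either. Of all genes 9.55% had at least 1 probe set that did, so 0 of 9 is again near the background. The 22 probe sets differed by -0.43 to 0.21, with 13 below 0 and 9 above, and a median absolute difference of 0.10, against 0.16 over all probe sets. By gene, with the probe set of the highest mean level standing for each, 6 receptors were below 0 and 3 above, against 50.3% and 45.6% of all genes. Their median was -0.05, against -0.01 over all genes.

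**Figure D1:**
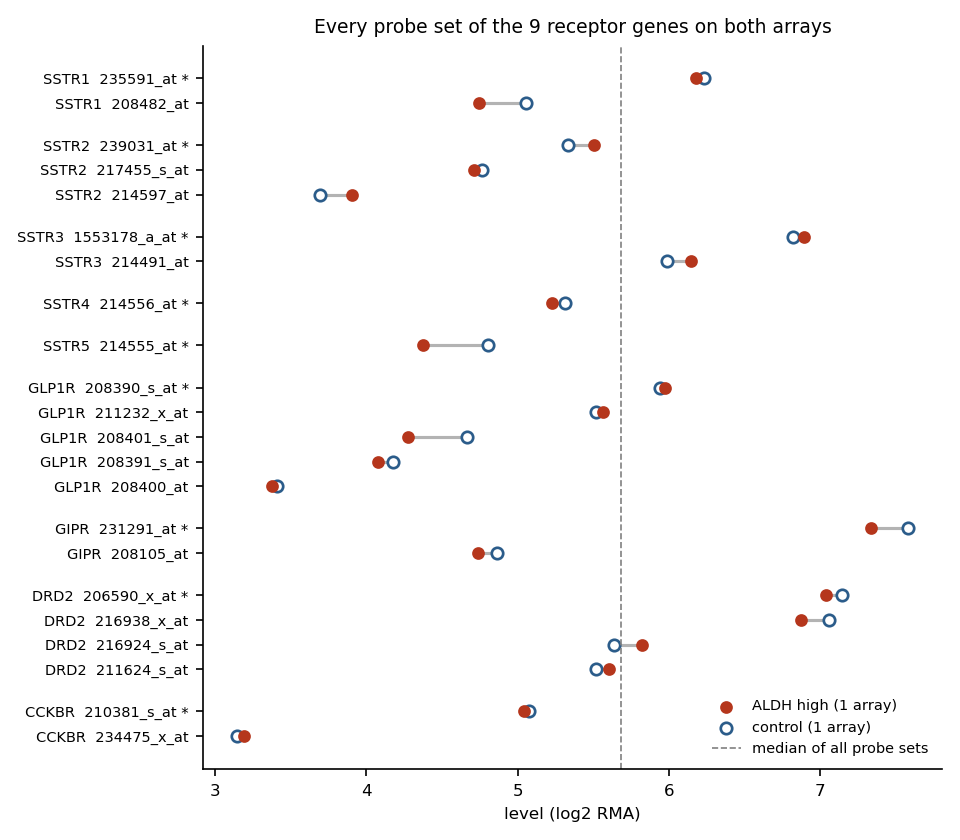
Level of every probe set of the 9 receptor genes (rows, grouped by gene) on the log2 RMA scale (x axis) in ALDH-high cells (filled red) and control cells (open blue), 1 array each. An asterisk marks the probe set that stands for the gene, and the dashed line is the median of all probe sets, 5.68. The paired points nearly touch in most rows, and the longest gaps are those of SSTR5 (-0.43), 1 of the 5 GLP1R probe sets (-0.39) and 1 of the 2 SSTR1 probe sets (-0.31).

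Most receptor signals were of middle or low brightness. Their levels ran from 3.14 to 7.58, which is percentile 10.9 to percentile 73.1 of an array, and 7 of 22 probe sets were at or above the median of 5.68 on both arrays. For 5 of the 22 the size of the difference was shared, to 6 decimals, by 20 or more probe sets of the table, against 29.5% of all probe sets. Those 5 included the brightest probe sets of SSTR2, with 38 probe sets at that size, and of GLP1R, with 30. IDs ending in _s_at or _x_at mark probe sets with several possible target transcripts, whose signal can come from another gene. Of the 22 receptor probe sets 11 were of this kind, against 28.4% of all probe sets. They included all of those for DRD2 and CCKBR and 4 of the 5 for GLP1R, among them its brightest.

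SSTR5 had the largest difference of the 9 genes. This receptor, which binds pasireotide with high affinity and in beta cells takes part in the inhibition of insulin release, was measured by 1 probe set, at 4.37 in ALDH high and 4.81 in control. The difference of -0.43 is a 1.35-fold lower level in ALDH high. Both levels were dim, at percentile 27.7 of the ALDH-high array and percentile 34.5 of the control array. Among all genes 12.8% differed by at least as much, as did 9.70% of the probe sets of similar mean level. With a pseudocount of 32 on the linear scale, which damps differences between dim levels, it was -0.19.

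SSTR2, the chief target of clinical somatostatin analogues, was nearly level. Its brightest probe set read 5.51 in ALDH high and 5.34 in control, a difference of 0.17 or 1.13-fold. A second read 4.71 in ALDH high and 4.76 in control, and the third 3.91 in ALDH high and 3.70 in control. The 3 differences, 0.17, -0.05 and 0.21, did not share a sign, and all 6 readings lay below the median level. No loss or gain of SSTR2 mRNA of 1.5-fold was seen on any of its probe sets, but all of its signals were dim.

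The remaining somatostatin receptors differed by less than 0.1 on the probe set that stands for each. SSTR3 was at or above the median level on both of its probe sets, with 6.89 in ALDH high and 6.82 in control on one probe set and 6.14 in ALDH high and 5.98 in control on the other, and both differences were positive (0.07 and 0.16). SSTR1 read 6.18 in ALDH high and 6.23 in control, with a second, dimmer probe set at 4.74 in ALDH high and 5.06 in control, and both differences were negative (-0.05 and -0.31). SSTR4, for which there was 1 probe set, read 5.23 in ALDH high and 5.32 in control, a difference of -0.09. Across the family 5 of 9 probe sets lay below 0 and 4 above, and the median over the 5 genes was -0.05.

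Both probe sets of GIPR, the receptor for glucose-dependent insulinotropic polypeptide, were lower in ALDH-high cells. The brighter one, at 7.33 in ALDH high and 7.58 in control, differed by -0.25, which is 1.19-fold lower. The dimmer one read 4.74 in ALDH high and 4.87 in control (-0.12). Among all genes 32.4% differed by at least as much as the brighter probe set.

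GLP1R, the receptor for glucagon-like peptide-1 and an imaging target in insulinoma, had no common direction. Its brightest probe set read 5.97 in ALDH high and 5.94 in control (0.03), and the next 5.56 in ALDH high and 5.52 in control (0.05). The other 3, all dimmer, were lower in ALDH high, at 4.28 in ALDH high against 4.67 in control (-0.39), 4.08 in ALDH high against 4.18 in control (-0.10) and 3.38 in ALDH high against 3.41 in control (-0.03). The differences of the 5 probe sets spanned 0.44, and the gene's sign turned with the probe set rule, from 0.03 on the brightest to -0.09 as the mean of all 5. Only the dimmest of the 5 was not of the _s_at or _x_at kind.

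DRD2 and CCKBR were also level. DRD2, the dopamine receptor addressed by cabergoline, read 7.04 in ALDH high and 7.14 in control on its brightest probe set (-0.10) and 6.87 in ALDH high and 7.06 in control on the second (-0.19). Its dimmer probe sets were slightly higher in ALDH high, at 5.82 in ALDH high against 5.64 in control (0.19) and 5.61 in ALDH high against 5.52 in control (0.09), and the mean of the 4 differences was -0.004. CCKBR, which binds gastrin and cholecystokinin and is targeted by radiolabelled minigastrins, read 5.04 in ALDH high and 5.08 in control (-0.03), with a second, dimmer probe set at 3.20 in ALDH high and 3.14 in control (0.05).

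**Figure D2:**
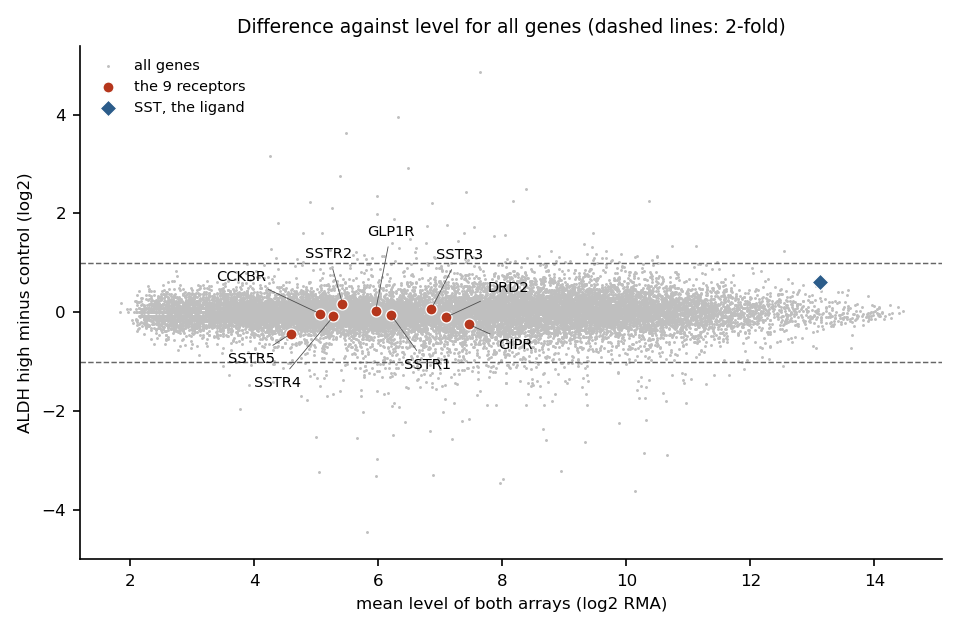
Difference between ALDH-high and control cells (y axis, log2) against the mean level of both arrays (x axis, log2 RMA) for 19775 genes (grey), the 9 receptors (red) and the ligand gene SST (blue diamond). Dashed lines mark 2-fold. The receptors lie between -0.43 and 0.17 within the grey band of all genes, at low to middle levels, and SST lies at the bright end at 0.60.

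The receptors did not separate by the G protein they use. The 6 receptors coupled to inhibitory G proteins had differences from -0.43 to 0.17 with a median of -0.07, and the 2 coupled to the stimulatory G protein stood at -0.25 and 0.03. Of the 7 receptors with several probe sets, 3 (SSTR1, SSTR3 and GIPR) had all of them on the same side of 0, against 47.1% of all genes with several. The spread of the differences between probe sets of one receptor had a pooled SD of 0.15, against 0.23 over all such genes, and apart from SSTR5 and GIPR the receptors' own differences were at most 0.17 in size. For scale, 24 probe sets of the spiked-in poly-A RNA controls, which pass through labelling, had a mean difference of 0.32 (SD 0.07), and 18 of the hybridisation controls a mean of 0.05 (SD 0.04). Of the 9 receptors SSTR5 alone had a difference larger in size than the poly-A controls' mean, and the part of labelling in these differences was not tested.

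**Figure D3:**
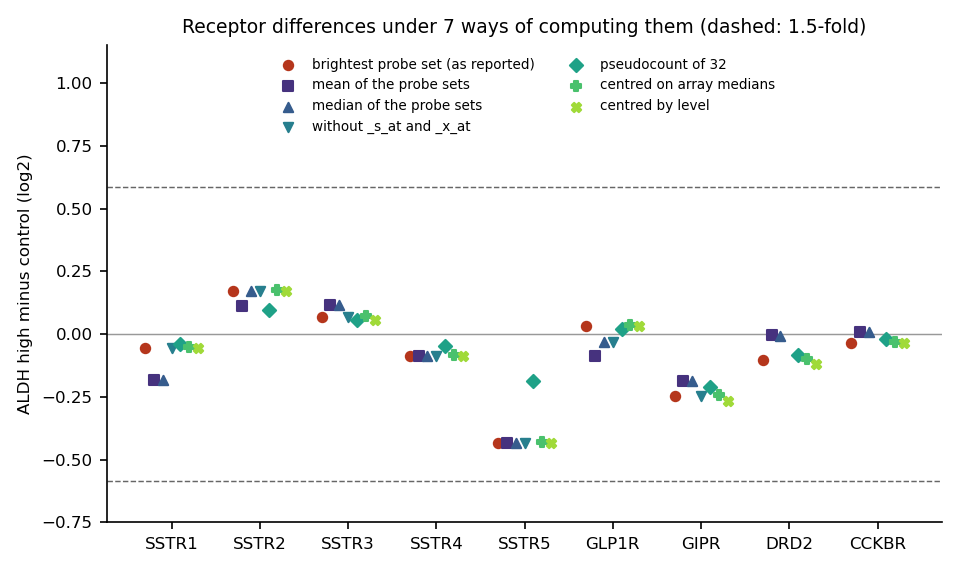
Difference between ALDH-high and control cells (y axis, log2) for each receptor (x axis) under 7 ways of computing it, the first being the brightest probe set as reported. Dashed lines mark 1.5-fold. All points lie between -0.43 and 0.17, and GLP1R and CCKBR have points on both sides of 0. DRD2 and CCKBR have no point without the _s_at and _x_at probe sets because they have no other kind.

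The somatostatin gene itself was bright and higher in the ALDH-high cells. SST, whose peptide is the natural ligand of all 5 somatostatin receptors, read 13.43 in ALDH high and 12.83 in control on its only probe set, a 1.52-fold higher level at percentile 99.6 and percentile 99.3 of the arrays. None of the 11 measured genes for ligands and their processing was over 2-fold different and the median was 0.00, but SST and DDC were over 1.5-fold higher. DDC, the decarboxylase that makes dopamine and serotonin, read 11.93 in ALDH high and 11.25 in control (0.68), and its second probe set also differed by 0.68. The other ligand genes, named after their values were seen, had low levels and small differences. CORT, the gene of cortistatin, a relative of somatostatin, read 5.43 in ALDH high and 5.36 in control, GCG, the source of glucagon-like peptide-1, 3.49 in ALDH high and 3.22 in control, and GIP 4.41 on both arrays. GAST, the gastrin gene, read 5.65 in ALDH high and 5.76 in control, and CCK 5.03 in ALDH high and 5.04 in control. Among the peptide-processing enzymes, CPE (13.49 in ALDH high and 13.63 in control) and PAM (13.23 in ALDH high and 13.48 in control), also named after their values were seen, were bright and slightly lower in ALDH high.

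Of the genes that couple the receptors to the cell, all 17 G protein subunits were at or above the median level on at least 1 array, against 64.9% of all genes. Of the 17, 8 were above 0 and 9 below, against 45.6% and 50.3% of all genes, with a median of -0.05. The alpha subunit genes of the inhibitory class, named after their values were seen, differed by at most 0.16 in size on their brightest probe sets and not all in one direction. GNAI1 read 11.86 in ALDH high and 11.79 in control, GNAI2 6.84 in ALDH high and 6.82 in control, and GNAI3 11.71 in ALDH high and 11.59 in control. GNAO1 read 8.23 in ALDH high and 8.39 in control, with all 4 of its probe sets lower (-0.51 to -0.16), and GNAZ 7.38 in ALDH high and 7.55 in control. GNAS, which encodes the stimulatory alpha subunit and was also named after its values were seen, read 13.51 in ALDH high and 13.70 in control (-0.19). Its 12 probe sets ran from -0.46 to 0.26, with 8 below 0 and 4 above. The subunits more than 1.5-fold different were both gamma subunits. GNG7 read 6.47 in ALDH high and 7.51 in control, 2.05-fold lower, but its other probe sets differed by -0.52 and -0.26, and the mean over the 3 was -0.60. GNG12 read 9.95 in ALDH high and 10.69 in control (1.67-fold lower), with all 3 of its probe sets between -0.90 and -0.71.

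RGS4 was the only gene over 2-fold higher among the 175 measured in the 9 related lists. RGS proteins speed GTP hydrolysis by G protein alpha subunits and so shorten receptor signals, and RGS4 acts on the inhibitory and Gq classes. It read 13.16 in ALDH high and 11.93 in control, 2.35-fold higher, and its other 2 probe sets differed by 1.36 and 1.44 at levels of 12.26 in ALDH high against 10.91 in control and 10.84 in ALDH high against 9.40 in control. Of the 26 measured genes for desensitisation and G protein regulation 19 were above 0, against 45.6% of all genes, with a median of 0.08. RGS10, another RGS protein, named after its values were seen, went the other way from RGS4. It read 8.15 in ALDH high and 8.90 in control, 1.69-fold lower, and all 3 of its probe sets were lower (-0.75 to -0.16). SHANK2, a scaffold protein, was 1.69-fold lower (6.85 in ALDH high against 7.61 in control), with 2 further probe sets at -1.14 and -1.03 and the dimmest 3 near 0. The receptor kinase genes, named after their values were seen, ranged from GRK4 (-0.34) through GRK6 (0.03), GRK2 (0.05) and GRK3 (0.21) to GRK5 (0.54). The probe sets of GRK2 were all above 0, up to 0.54, and those of GRK5 ran from -0.05 to 0.54.

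In the cAMP pathway none of 26 measured genes was over 2-fold different, and the median was -0.07. CREM, which encodes cAMP-responsive transcription factors including the inducible repressor ICER, came closest. It read 9.30 in ALDH high and 10.25 in control, 1.93-fold lower, and all 6 of its probe sets were lower, from -1.07 to -0.24. PDE4A, a cAMP phosphodiesterase, read 5.89 in ALDH high and 6.73 in control (-0.84), but its other 4 probe sets, all dimmer, lay between -0.09 and 0.09. ADCY2, an adenylyl cyclase named after its value was seen, read 7.61 in ALDH high and 6.81 in control (0.80), with its 3 probe sets from -0.17 to 0.80. CREB1, the cAMP response element binding protein, also named after its value was seen, read 9.49 in ALDH high and 9.25 in control.

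The response element that CREB1 and CREM products bind, the CRE, is a known element of the somatostatin gene, and its letters were looked for upstream of the receptors and of their ligand. The full element TGACGTCA, which reads the same on both strands, occurs in 1.65% of the 35116 upstream windows of 250 bases in the RefSeq table (GRCh38.p14). It is in the window of SST and in none of those of the 8 receptors matched in the table. The 5-letter core TGACG, on either strand and also contained in the full element, occurs in 21.2% of all windows and among the receptors in that of SSTR2, from 58 to 54 bases before the start. The window of SST is shown because it is the ligand's gene, with the CRE in capitals from 47 to 40 bases before the start, chr3:187670395-187670644, minus strand, 5′ to 3′.
SST: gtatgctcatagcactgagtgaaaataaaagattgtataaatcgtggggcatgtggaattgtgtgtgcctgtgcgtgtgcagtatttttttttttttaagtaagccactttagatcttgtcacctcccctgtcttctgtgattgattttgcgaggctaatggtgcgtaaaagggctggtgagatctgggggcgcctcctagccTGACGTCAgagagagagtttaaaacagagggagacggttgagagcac
A match is a description of the letters and says nothing of binding in these cells.

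**Figure D4:**
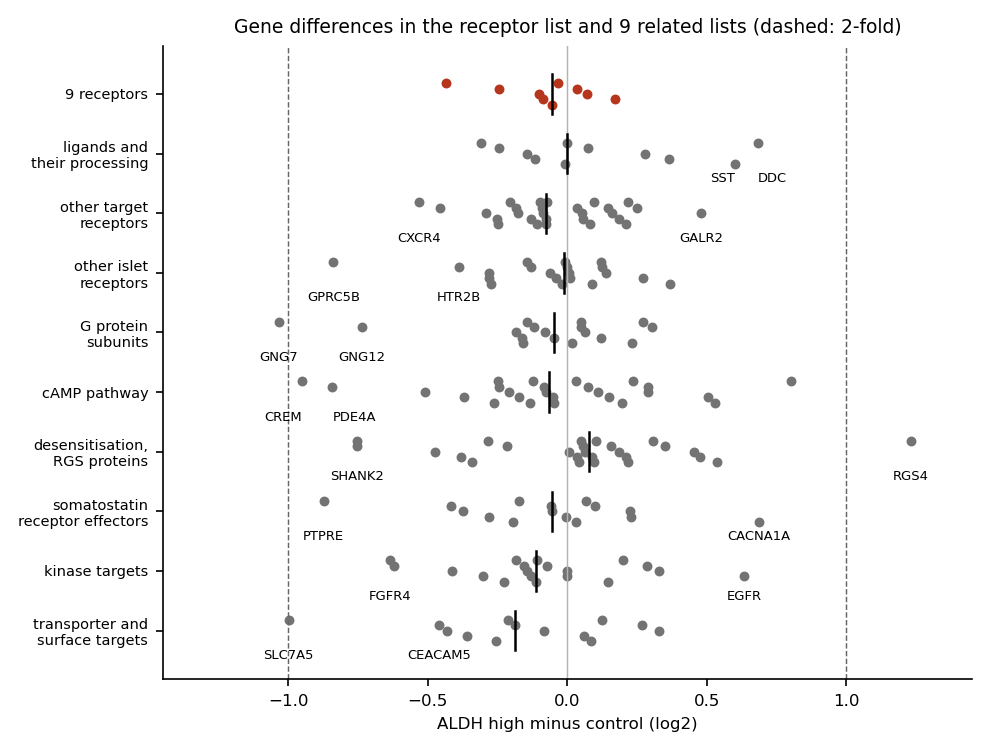
Difference between ALDH-high and control cells (x axis, log2) of every measured gene of the 9 receptors (top row, red) and of 9 related lists (grey), 1 point a gene, with the median of each list as a black bar and dashed lines at 2-fold. Named below each row are the genes with the largest absolute difference. RGS4 (1.23) and GNG7 (-1.03) are the points beyond 2-fold, and the receptors span -0.43 to 0.17.

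Of 15 measured somatostatin receptor effectors none was over 2-fold different, and the median was -0.06. The phosphatase genes PTPN6 (7.86 in ALDH high and 7.83 in control) and PTPN11 (10.70 in ALDH high and 10.71 in control), named after their values were seen, encode SHP-1 and SHP-2, which are recruited by somatostatin receptors, and were level on their brightest probe sets. All 6 probe sets of PTPN11 were below 0, from -0.23 to -0.007. PTPRE, a receptor-type phosphatase, was 1.83-fold lower on its brightest probe set (6.28 in ALDH high against 7.15 in control), while its other probe sets, both dim, differed by 0.46 and 0.00. CACNA1A, the pore subunit of a neuronal calcium channel, was 1.61-fold higher (8.75 in ALDH high against 8.06 in control) with 4 of 5 probe sets above 0.

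Other receptors proposed as tumour targets also differed little. Of 28 measured, none was over 1.5-fold different in either direction, 16 were below 0, against 50.3% of all genes, and the median was -0.08. The chemokine receptor CXCR4 had the largest difference, 5.90 in ALDH high against 6.43 in control, and all 3 of its probe sets were lower (-0.53 to -0.27). GALR2, a galanin receptor, read 4.63 in ALDH high and 4.15 in control, and its difference of 0.48 was 0.19 with the pseudocount. Of 20 other islet receptors none was over 2-fold different and the median was -0.01. GPRC5B read 5.20 in ALDH high against 6.04 in control (-0.84), although its probe sets ranged from -0.84 to 0.30, and HTR2B, a serotonin receptor, was at the floor (2.51 in ALDH high and 2.90 in control).

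Non-GPCR targets of neuroendocrine tumours gave no 2-fold difference either. Of 19 kinase targets 12 were below 0 and 5 above, against 50.3% and 45.6% of all genes, with a median of -0.11. EGFR was 1.55-fold higher on its brightest probe set (8.80 in ALDH high against 8.16 in control), but the mean over its 9 probe sets was 0.22 and their median 0.23, within 1.5-fold. FGFR4 was 1.56-fold lower (5.49 in ALDH high against 6.12 in control, with its other probe sets from -0.11 to 0.08). KIT, named after its values were seen, was 1.54-fold lower on its only probe set, at 8.55 in ALDH high and 9.17 in control. RET, named after its value was seen, was bright at 11.03 in ALDH high and 10.74 in control. Of 13 transporter and surface targets the median was -0.19, but -0.001 with the mean and 0.01 with the median of each gene's probe sets. SLC7A5, an amino acid transporter, was close to 2-fold lower at 11.36 in ALDH high against 12.36 in control, and CEACAM5, the carcinoembryonic antigen, read 13.42 in ALDH high and 13.88 in control (-0.46). The Notch ligand DLL3, named after its value was seen, read 9.46 in ALDH high and 9.54 in control.

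Likeness to SSTR5 could be measured only by the size of 1 difference, since 2 arrays give 1 value a gene. Among the 175 genes of the related lists, FAP (-0.43), CACNA1C (-0.42) and IGF1R (-0.41) lay nearest to its -0.43. FAP was dim on its only probe set, of the _s_at kind (3.91 in ALDH high and 4.34 in control). All 4 probe sets of CACNA1C were below 0, whereas the 5 of IGF1R ran from -0.41 to 0.31. Of all genes, 1247 others lay within 0.1 of SSTR5, so the match is not specific.

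Markers of other cell types were examined beside these values. Both arrays are of the same established cell line, so a marker's level here does not measure how many cells of that type were present. None of the 7 ductal, 5 acinar, 8 fibroblast and stellate or 8 endothelial markers measured was over 2-fold different, and the list medians were -0.09, -0.20, -0.04 and -0.11. Their largest differences were those of SOX9 (-0.63) and KRT19 (0.60) among ductal, BHLHA15 (-0.84) and CPB1 (0.44) among acinar, VIM (0.69) and ACTA2 (-0.42) among fibroblast and stellate, and EGFL7 (-0.71) and ESAM (0.37) among endothelial markers. For 3 of them the other probe sets differed: the mean over probe sets was 0.27 for VIM, 0.26 for KRT19 and -0.17 for ACTA2. Of the 6 leukocyte markers LYZ (4.34 in ALDH high against 5.67 in control) and CD14 (4.30 in ALDH high against 5.32 in control) were over 2-fold lower, both dimmer than the median level, and the list's median was -0.05. Summed on the linear scale the 6 leukocyte markers came to 230 in ALDH high and 275 in control, 5 acinar ones to 241 in ALDH high and 382 in control, 8 endothelial ones to 520 in ALDH high and 681 in control, 8 fibroblast and stellate ones to 438 in ALDH high and 453 in control, and 7 ductal ones to 6309 in ALDH high and 6230 in control. Their part in the receptor values was not tested. In bulk RNA a lower share of cells that make a transcript cannot be told from less of it per cell.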

How the data were processed

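Expression was measured on 1 array per group, in ALDH-high and control QGP1 cells. Per the submitters' processing notes the authors used RMA, and the deposited table holds its log2 levels, 1 per probe set. The method corrects background, quantile-normalises arrays and summarises probes by median polish, so a global shift between groups would be removed and low signals are compressed. The sources used here do not give the RMA version or say which arrays were normalised as one set. Labelling used a 3′ in vitro transcription kit, per the labels' protocols.

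From the 54675 rows, 62 Affymetrix controls were set apart. GEO's platform annotation gave 41091 of the remaining probe sets a single symbol, 1801 several and 11721 none, and single symbols were checked through Entrez IDs against RefSeq GRCh38.p14, which changed 0. The difference is ALDH high minus control, and a gene is represented by its brightest probe set (mean of both arrays). No test was possible with 1 array per group, and the number of arrays limits the precision. The series description's 2-fold threshold was used with a lower one of 1.5-fold. Percentiles of similar level refer to 20 equal bins of mean level.

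The 9 receptors and the 15 other lists (234 genes, of which 217 were measured; the others were not analysed here) were chosen with earlier results of these data known. Named are all receptors and, in each other list, up to 4 genes over 2-fold and no fewer than the 2 that differ most, while further names are marked as chosen after seeing values. Alternatives were the mean or median of a gene's probe sets, leaving out _s_at and _x_at probe sets, a pseudocount of 32, centring on array medians or by level, dim genes left out, and thresholds of 1.5-fold and 3-fold. Python 3.11.15 with pandas 2.3.3, numpy 2.4.6 and matplotlib 3.10.9 was used. The steps were tested on simulated data whose changes were larger than any receptor difference, so differences as small as those of the receptors were not covered.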

Additional observations from a re-analysis of the deposited data

How the results depend on the processing

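The count of 0 receptors over 2-fold, higher and lower, was 0 under each of the 7 other settings and at a threshold of 1.5-fold. No receptor probe set passed 1.5-fold, so the probe set rules, the pseudocount and leaving out dim genes could not have raised this count. Centring could have, but its shifts were small beside 2-fold. At 3-fold a count of 0 follows from that at 2-fold, so this threshold was no check. The median over the receptors was between -0.09 and -0.03 under the 7. It moved by less than the spread between probe sets of one gene (SD 0.23). That SD is wider than the median itself (-0.05), so the bound is loose. The receptor differences lay between -0.43 and 0.17 in all 61 values computed. SSTR1, SSTR4, SSTR5, GIPR and DRD2 were below 0 and SSTR2 and SSTR3 above 0 in every setting that gave a value, whereas GLP1R (-0.09 to 0.04) and CCKBR (-0.03 to 0.01) were not. A pseudocount cannot turn a sign. SSTR4 and SSTR5 have 1 probe set each, and the probe sets of SSTR1, SSTR3 and GIPR share a sign. No probe set rule could turn the sign of these genes, so only centring checked it. SSTR5 was -0.19 with the pseudocount, which damps dim levels by construction. GNG7 was no longer over 2-fold when its probe sets were averaged (-0.60) or their median taken (-0.52), without shared-target probe sets (-0.26) or with the pseudocount (-0.82), and the cause was not tested. RGS4 stayed over 2-fold, from 1.22 to 1.36. LYZ (-0.42 to -1.33) and CD14 (-0.48 to -1.02) were each within 2-fold in some settings. The counts of all genes over 2-fold, 92 higher and 243 lower, were lowest with the pseudocount, at 50 and 127, and were 56 and 163 with the mean and 55 and 171 with the median of the probe sets. Of 389 alternative medians and counts of the other lists and of all genes, 356 moved by less than that SD or by no more than 1.5 times. The list medians that turned sign in some setting were those of the transporter and surface targets (0.01 with the median of the probe sets), the somatostatin receptor effectors (0.02 with that median), and the fibroblast and stellate (0.03 without shared-target probe sets), ductal (0.03 without them) and leukocyte markers (0.08 over genes at or above the median level). The median of the ligand and processing list, 0.00 as reported, lay on both sides of 0. It was 0.04 without shared-target probe sets and -0.12 over genes at or above the median level. With the median of the probe sets EGFR (0.23), KRT19 (0.26), VIM (0.27), PTPRE (0.00), PDE4A (0.02), SHANK2 (-0.38) and FGFR4 (-0.11) were within 1.5-fold, and without shared-target probe sets CREM was -0.32 and GPRC5B turned to 0.30. The values for CREM and GPRC5B are those of the brightest remaining probe set. The other remaining one, which was dimmer, differed by -0.96 for CREM and by -0.69 for GPRC5B. DRD2 and CCKBR could not be computed without shared-target probe sets. Dim signal limits what SSTR2, SSTR4, SSTR5 and CCKBR can show, and 1 array per group leaves the spread between cultures and sorts unknown. No paired analysis was possible because each group has 1 array and the labels give no replicate numbers.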
